A study of Mus musculus with 28 samples.

Results

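NRF2 antioxidant response genes were described as a set of 10 named genes of 27179 Entrez genes in each of the 2 deposited tables. The genes were listed by symbol, and earlier results of these data were known when they were chosen. The set holds the transcription factor gene Nfe2l2, which encodes NRF2, its repressor gene Keap1, and 8 genes known as NRF2 targets, namely Nqo1, Hmox1, Gclc, Gclm, Txnrd1, Srxn1, Osgin1 and Slc7a11. All 10 were found in both tables, and all 10 passed the filter on low counts in every comparison.

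Lateral ventricle choroid plexus from male mice was dissected after perfusion and its polyadenylated RNA was sequenced in 28 libraries, with 4 libraries in each of 7 groups. The first 3 groups were young wild-type C57/BL6 mice, given as 3 months old in the sample labels and as up to 4 months old in the study's design text: mice taken at ZT6 (Zeitgeber time, hours after lights on) after 6 h of sleep disruption (SD), undisturbed mice at ZT18 (night), and undisturbed mice at ZT6 (day). The other groups were aged 12 to 14 months: J20+ mice at ZT18 (night), J20+ mice at ZT6 (day), wild-type (WT) littermates at ZT18 (night), and WT littermates at ZT6 (day). The J20 line carries a human APP transgene with familial Alzheimer's disease mutations, driven by the platelet-derived growth factor B promoter and active mainly in neurons. Young mice formed batch 1 and aged mice batch 2, so age and batch cannot be told apart, and no test was made between them. Libraries are named 1 to 4 within a group. The labels name them as separate samples without saying that each came from a different mouse, so p-values measure the spread between these samples, which may be technical.

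NRF2 is a transcription factor that KEAP1 holds in the cytoplasm and delivers to a CUL3 ubiquitin ligase for destruction. When oxidants or electrophiles modify cysteines of KEAP1, NRF2 escapes, enters the nucleus, pairs with small MAF proteins and binds antioxidant response elements in front of genes for glutathione synthesis, thioredoxin recycling and quinone or haem breakdown. Because this control acts largely on the NRF2 protein, the mRNA of Nfe2l2 is not a measure of NRF2 activity. The choroid plexus epithelium secretes cerebrospinal fluid, forms a barrier between blood and that fluid, and is rich in detoxifying enzymes.

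In all, 4 members hold the core of an antioxidant response element, TGACNNNGC on either strand, in the RefSeq promoter window from 250 bases before to 50 bases after the start of transcription (GRCm38.p6, the assembly that mm10 names). The matches are shown on the strand of the gene with 10 bases on each side, and capitals mark the 9 bases of the motif.
Nfe2l2, chr2:75704885-75704913, minus strand, motif from 240 bases before the start: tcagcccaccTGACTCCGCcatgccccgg
Gclm, chr3:122245413-122245441, plus strand, motif reversed, from 134 bases before the start: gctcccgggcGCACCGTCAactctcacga
Txnrd1, chr10:82859104-82859132, plus strand, motif reversed, from 92 bases before the start of its second listed window: ctggatttttGCTTTGTCAttctgacacg
Srxn1, chr2:152105542-152105570, plus strand, motif reversed, from base 29 after the start: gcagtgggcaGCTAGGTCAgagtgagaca
RefSeq windows were at hand for 8 members, 10 windows in all, and the 4 members with a match stand beside 14.0% of 27025 genes with at least 1 match (12.4% of 32851 windows). The clock E-box CACGTG, a palindrome that reads the same on both strands, was in 0 of the 8 members' windows, against 8.09% of all genes. These are letter matches in a short window and do not show binding.

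Total counts ran from 14.6M to 43.9M per library. Levels are given as CPM, the counts divided by the library total and put on a common scale, with library sizes scaled by the trimmed mean of M values (TMM) within each table. Choroid epithelium markers, among them the gene of transthyretin, were abundant in all libraries, with 10 markers summing to between 14970 and 25590 CPM, and no marker was at 0 in all libraries of a group. The aged libraries also differed in neuron, oligodendrocyte and astrocyte markers. Those 20 neural markers summed to between 299.6 and 1671 CPM in J20+ night libraries, 300.3 and 2941 CPM in J20+ day libraries, 1121 and 7494 CPM in WT night libraries, and 306.4 and 3140 CPM in WT day libraries. A pair of libraries stood apart from their groups. J20+ night library 2 had the lowest epithelium score of all aged libraries, 9.45 as the mean log2 CPM of the 10 markers, and J20+ day library 1 had the highest fibroblast and mural score, 5.83. The clock genes Arntl and Nr1d1 lay on the sides the time labels imply, with pooled night over day log2 fold changes of 1.70 ± 0.22 and -2.19 ± 0.19 (SE; edgeR quasi-likelihood test, adjusted p = 1.63e-04 and 1.33e-07).

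Per kilobase of annotated exon, the quinone reductase gene Nqo1 stood highest of the 10 in both tables, at a mean of 73.0 CPM per kb in aged libraries and 105.6 CPM per kb in young libraries. Nfe2l2 came next, at 28.8 CPM per kb in aged and 44.7 CPM per kb in young libraries. Gclc, Txnrd1 and Srxn1 lay between 13.6 and 16.4 CPM per kb in aged libraries and between 14.1 and 18.1 CPM per kb in young libraries. Osgin1 was lowest in young libraries, at 0.238 CPM per kb, and stood at 4.90 CPM per kb in aged libraries, where Slc7a11 was lowest at 3.27 CPM per kb. Members differed widely in how steady they were between libraries. In young libraries the highest over the lowest CPM was 1.19 for Txnrd1 and 1.21 for Gclm, but 8.35 for Slc7a11 and 8.99 for the sparsely counted Osgin1. Aged libraries gave ratios of 1.29 for Gclc and 1.303 for Keap1, against 3.46 for Txnrd1 and 18.9 for Slc7a11.

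**Figure D1:**
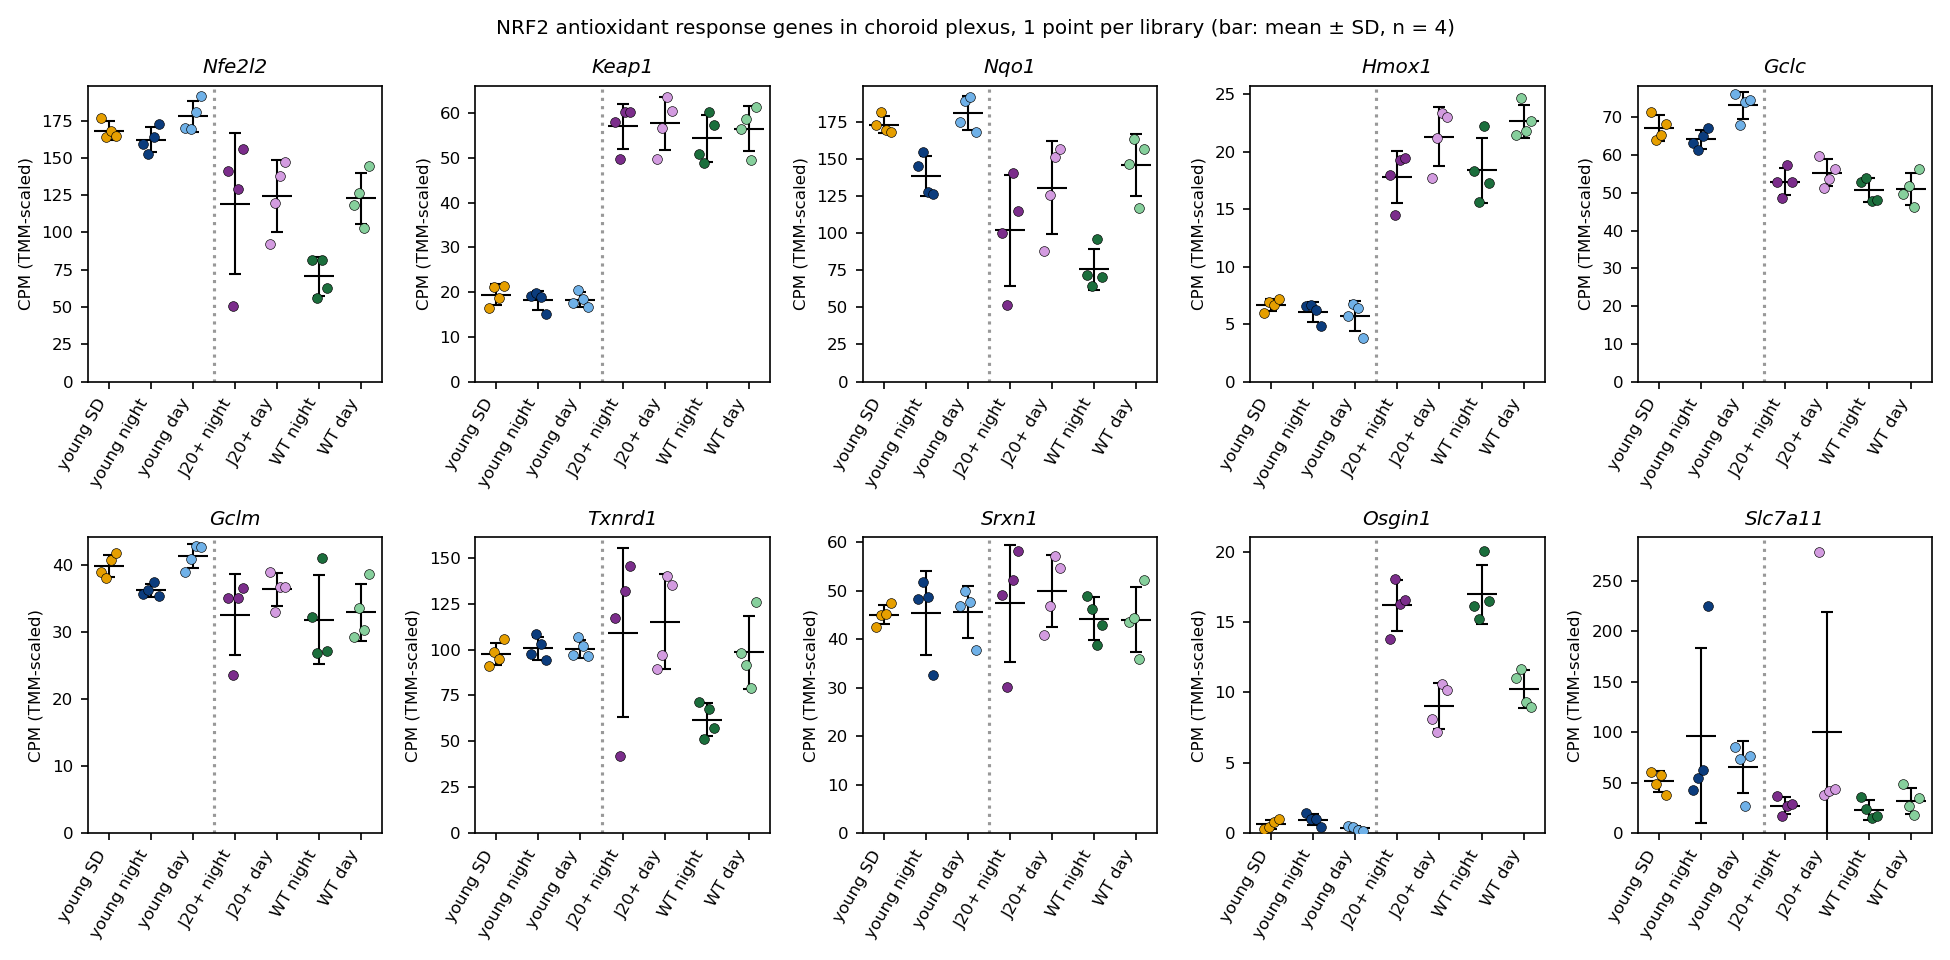
CPM (TMM-scaled) of each of the 10 genes, 1 point per library, with the mean and SD of 4 libraries per group; the dotted line separates the young table from the aged table, which differ in age and batch. Osgin1 lay between 13.8 and 18.1 CPM in J20+ night and between 7.20 and 10.6 CPM in J20+ day libraries. In WT littermates it lay between 15.2 and 20.01 CPM at night and between 8.96 and 11.7 CPM by day. Slc7a11 reached 226 CPM in 1 young night library and 278 CPM in 1 J20+ day library.

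Across the comparisons of time, sleep and genotype, 2 members passed the test, and both did so when day and night were compared over all 3 cohorts. Osgin1 was higher at night and Nqo1 was lower at night, in a fit of 24 libraries with cohort as a term (young, J20+, aged WT). That is 1 of 10 members higher, against 0.757% of 16504 genes called higher, and 1 of 10 lower, against 0.709% called lower (1.47% in either direction). The median log2 fold change of the 10 was -0.17, beside 0.01 over all genes, and Osgin1 had the 1 positive value. No member was called within a single cohort, for which the all-gene shares were 0.267% (young night over day), 0.0436% (J20+ night over day) and 0.0124% (aged WT night over day). At an unadjusted p under 0.05, 4 members stood beside 9.39% of all genes in young mice, 2 beside 7.41% in J20+ mice and 5 beside 31.1% in aged WT mice. DESeq2 called 2 members in young mice (1.87% of genes with an adjusted p), 1 in J20+ mice (0.496%) and 3 in aged WT mice (9.08%). The limma-voom fit called 3 members in young mice (18.7% of genes), 1 in J20+ mice (1.71%) and 5 in aged WT mice (51.7%), the last at the share of all genes.

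**Figure D2:**
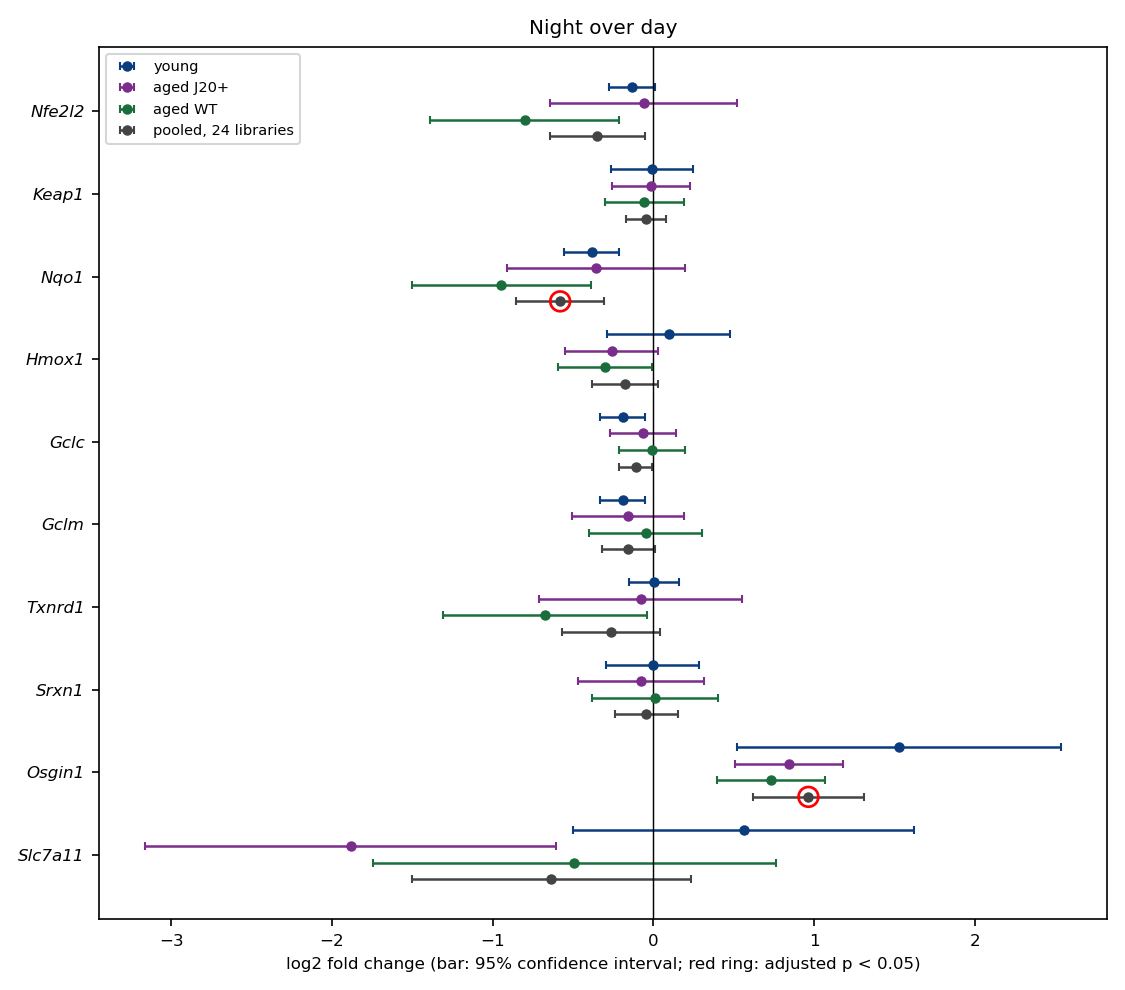
Log2 fold change of night over day for each gene (horizontal axis), with 95% confidence intervals, in young mice, J20+ mice, aged WT mice and the pooled fit of 24 libraries. Red rings mark the pooled Nqo1 (-0.58) and Osgin1 (0.97) values, the 2 with an adjusted p under 0.05.

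Among the regulators, Nfe2l2 had 142, 50.6, 129 and 156 CPM in J20+ night libraries 1 to 4, and 92.5, 120.0, 138 and 148 CPM in J20+ day libraries. In WT littermates it had 81.5, 56.3, 81.6 and 62.9 CPM at night, against 118, 126, 103 and 144 CPM by day. All 4 WT night libraries lay below all 4 WT day libraries, as was so for 15.3% of 16065 genes tested, whereas in J20+ mice the groups overlapped, with night library 2 far below the other night libraries. The log2 fold change of night over day was -0.80 ± 0.28 in aged WT mice and -0.06 ± 0.27 in J20+ mice (SE, n = 4 per group; edgeR adjusted p = 0.144 and 1.00), and the difference between them was 0.74 ± 0.39 (adjusted p = 0.431). Young mice kept a narrow range, with 163.7 to 177 CPM after sleep disruption, 153 to 173 CPM at night and 169 to 191 CPM by day. Their night over day log2 fold change was -0.13 ± 0.07 (adjusted p = 0.571).

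Keap1, which encodes the sensor that restrains NRF2, varied little across the aged groups. Its means were 57.1 ± 5.0 CPM in J20+ night, 57.7 ± 6.0 CPM in J20+ day, 54.4 ± 5.4 CPM in WT night and 56.5 ± 5.1 CPM in WT day libraries (SD, n = 4 each). In young mice the means were 19.4 ± 2.3 CPM after sleep disruption, 18.2 ± 2.1 CPM at night and 18.3 ± 1.6 CPM by day. Every one of its log2 fold changes lay between -0.09 and 0.08, and the pooled night over day value had a 95% confidence interval from -0.17 to 0.08. Of its exon bases, 10.9% overlap the antisense gene Gm16754, and the strand setting of the counting is not given in the sources used here, so reads of the pair may be mixed.

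Nqo1, whose product reduces quinones with NADH or NADPH, did not overlap between night and day in young mice. It had 145, 154, 128 and 126 CPM in young night libraries, against 175, 189, 192 and 168 CPM in young day libraries. Every night library lay below every day library, as did 2.7% of 14983 genes tested. The log2 fold change was -0.38 ± 0.08 (edgeR adjusted p = 0.0854), short of the threshold. It passed with DESeq2 (adjusted p = 8.67e-05), with limma-voom (adjusted p = 0.0140) and with the neural marker score as a covariate (-0.39, adjusted p = 0.0420). It did not pass with relative log expression scaling, without the count filter or on the compared groups alone (edgeR adjusted p up to 0.367). None of the 8 edgeR fits leaving out 1 library called it (adjusted p from 0.0638 to 0.304).

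In aged mice Nqo1 had 100.2, 51.6, 140.3 and 115 CPM in J20+ night libraries and 88.0, 126, 151 and 157 CPM in J20+ day libraries. WT littermates had 71.7, 64.2, 95.8 and 70.6 CPM at night and 146, 163.5, 116.5 and 157 CPM by day. The WT groups did not overlap, with night below day as for 15.3% of all genes, and the J20+ groups overlapped, where 1.19% of genes had night below day throughout. The night over day log2 fold changes were -0.36 ± 0.26 in J20+ mice and -0.95 ± 0.26 in WT mice (edgeR adjusted p = 0.705 and 0.144), with a difference of 0.59 ± 0.37 (adjusted p = 0.478). Pooled over cohorts, Nqo1 fell at night by 0.58 on the log2 scale, 0.669-fold of day (SE 0.13, n = 12 libraries a side, adjusted p = 0.0283). Leaving out 1 library at a time kept the value between -0.65 and -0.52, but in 7 of 24 cases the adjusted p exceeded the threshold, up to 0.0616: without young night library 3, J20+ day library 3 or 4, WT night library 2 or 4, or WT day library 2 or 4. Over the other alternatives the adjusted p ran from 0.00142 to 0.0409.

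Hmox1, which encodes the inducible haem oxygenase, had 17.8 ± 2.3 CPM in J20+ night, 21.3 ± 2.6 CPM in J20+ day, 18.4 ± 2.8 CPM in WT night and 22.6 ± 1.5 CPM in WT day libraries (SD, n = 4 each). Night libraries overlapped day libraries in both genotypes, and the log2 fold changes of night over day were -0.26 ± 0.14 in J20+ and -0.30 ± 0.14 in WT mice (edgeR adjusted p = 0.652 and 0.156). In young mice Hmox1 was a low-count gene at 3.82 to 7.20 CPM in all 12 libraries, with a night over day value of 0.10 ± 0.18 (adjusted p = 0.870).

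The glutathione synthesis pair showed small differences. Gclc, the catalytic subunit of glutamate-cysteine ligase, had 63.2, 61.2, 65.0 and 67.1 CPM in young night libraries, against 76.2, 68.0, 74.2 and 74.5 CPM in young day libraries. Gclm, its modifier subunit, had 35.8, 36.4, 37.5 and 35.4 CPM at night, against 39.01, 40.9, 42.9 and 42.7 CPM by day in young mice. Neither gene's groups overlapped, although both log2 fold changes were small, -0.19 ± 0.07 for Gclc and -0.19 ± 0.06 for Gclm (edgeR adjusted p = 0.376 and 0.369). DESeq2 called Gclm (adjusted p = 0.0451) but not Gclc, and limma-voom called Gclc (adjusted p = 0.0176) but not Gclm. The edgeR alternatives called neither (adjusted p up to 0.682 for Gclc and 0.683 for Gclm). Leaving out 1 library also called neither Gclc nor Gclm. With Nqo1, these are the 3 of 10 members whose young night libraries all lay below the day libraries, beside the 2.7% of all genes given above. In aged mice the same contrast gave -0.06 ± 0.10 in J20+ and -0.01 ± 0.10 in WT mice for Gclc, and -0.16 ± 0.16 in J20+ and -0.05 ± 0.16 in WT mice for Gclm. Of the exon bases of Gclm, 4.7% overlap Gm17494 on the opposite strand and 3.9% the pseudogene Gm6061.

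Txnrd1, the cytosolic thioredoxin reductase, followed Nfe2l2 in the aged libraries. It had 117, 42.0, 132 and 145 CPM in J20+ night libraries and 89.4, 96.8, 140.0 and 135 CPM in J20+ day libraries. WT littermates had 71.2, 51.5, 67.4 and 57.4 CPM at night, against 97.9, 91.3, 79.2 and 126 CPM by day. The WT night libraries again lay below all WT day libraries, as for 15.3% of genes, and J20+ night library 2 was again the lowest of the 16. Night over day was -0.08 ± 0.30 in J20+ and -0.67 ± 0.30 in WT mice (edgeR adjusted p = 1.00 and 0.153), and 0.01 ± 0.07 in young mice (adjusted p = 0.987). Across the 16 aged libraries, which share their groups and dissections, log2 CPM of Txnrd1 and Nfe2l2 had a Pearson r of 0.968 and a Spearman rho of 0.950, and r was 0.941 without the 2 libraries farthest from the median of Txnrd1. In the 12 young libraries the same pair had an r of -0.482.

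Srxn1 encodes sulfiredoxin, which repairs over-oxidised peroxiredoxins. Its group means stood within 45.1 and 45.5 CPM in young mice and within 44.0 and 49.9 CPM in aged mice. The pooled night over day log2 fold change was -0.04 ± 0.10, with a 95% confidence interval from -0.24 to 0.15.

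Osgin1, an oxidative stress-induced growth inhibitor gene, had the smallest adjusted p of the 10 members in the pooled fit. In aged J20+ mice it had 13.8, 18.1, 16.3 and 16.6 CPM at night, against 8.07, 7.20, 10.6 and 10.1 CPM by day. In aged WT mice it had 16.2, 15.2, 20.01 and 16.5 CPM at night, against 11, 11.7, 9.28 and 8.96 CPM by day. Within each genotype all 4 night libraries exceeded all 4 day libraries. The same was so for 2.42% of 16065 genes in J20+ mice and 10.8% in WT mice. The log2 fold changes were 0.84 ± 0.16 in J20+ and 0.73 ± 0.16 in WT mice (SE, n = 4 per group; edgeR adjusted p = 0.125 and 0.144). Their difference was 0.11 ± 0.22 with a 95% confidence interval from -0.36 to 0.59 (adjusted p = 0.849).

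In young mice Osgin1 was near the limit of counting, with 35, 30, 26 and 11 counts (1.41, 0.982, 0.980 and 0.433 CPM) in night libraries, against 11, 12, 6 and 4 counts (0.498, 0.407, 0.249 and 0.157 CPM) in day libraries. Night library 4 overlapped the day libraries. The log2 fold change was 1.53 ± 0.46 (edgeR adjusted p = 0.290). It passed with limma-voom (adjusted p = 0.0229), where 18.7% of genes were called. No other alternative called Osgin1 in young night over day (adjusted p up to 0.515). None of the 8 edgeR fits leaving out 1 library did so (adjusted p from 0.0743 to 0.668). Pooled over the 3 cohorts, night Osgin1 rose to 1.95-fold of day, a log2 fold change of 0.97 ± 0.17 (adjusted p = 0.00353), and 95% confidence limits were 0.62 and 1.31. Leaving out any 1 of the 24 libraries gave values from 0.88 to 1.01 with adjusted p from 0.00166 to 0.00852, and the other alternatives gave 0.72 to 0.97 with adjusted p from 1.49e-07 to 0.00525. With the neural score as a covariate the value was 0.97 ± 0.15 (adjusted p = 8.96e-04).

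Slc7a11 encodes the cystine carrier of system xc-, which brings in the cystine from which glutathione is made. Its highest group means rested on single libraries. It had 43.0, 55.0, 62.8 and 226 CPM in young night libraries, against 85.1, 72.9, 26.99 and 76.5 CPM in young day libraries. J20+ mice had 36.4, 16.6, 27.1 and 28.5 CPM at night, against 278, 37.4, 41.2 and 43.9 CPM by day. WT littermates ranged from 14.8 to 35.8 CPM at night and from 18.3 to 48.6 CPM by day. Young night library 4 and J20+ day library 1 exceeded every other library of their tables. All J20+ night libraries lay below all J20+ day libraries, as did 1.19% of genes tested, and the log2 fold change was -1.88 ± 0.60 (edgeR adjusted p = 0.643). Without J20+ day library 1 it was -0.59 ± 0.34. The young night over day value of 0.56 ± 0.49 (adjusted p = 0.718) was -0.29 ± 0.31 without young night library 4.

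Both high Slc7a11 libraries were also high in markers of stromal and several other cells. Young night library 4 had the highest fibroblast and mural score of the 12 young libraries, 4.70, and the highest macrophage score, 2.87. J20+ day library 1 had the highest of both among the aged libraries, 5.83 and 3.12. Each also had the highest astrocyte score of its table, 5.29 in young night library 4 and 7.84 in J20+ day library 1. Young night library 4 was highest as well in the neuron (2.81) and oligodendrocyte (3.20) scores and lowest in the epithelium score (10.11). J20+ day library 1 was highest as well in the endothelium (5.15) and ependyma (6.36) scores. Across libraries of 1 table, which share batch and dissection, log2 CPM of Slc7a11 and the fibroblast and mural score had an r of 0.883 in 16 aged libraries (Spearman rho 0.765; r 0.658 without the 2 libraries of most extreme score). In 12 young libraries r was 0.688 (rho 0.566; r 0.743 without the 2 most extreme). The macrophage score had a higher r with Slc7a11 in the young libraries, so the association is not particular to stroma. The part of stromal or other cells in these levels was not tested, and in bulk tissue fewer cells of a type and less RNA per cell cannot be told apart.

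**Figure D3:**
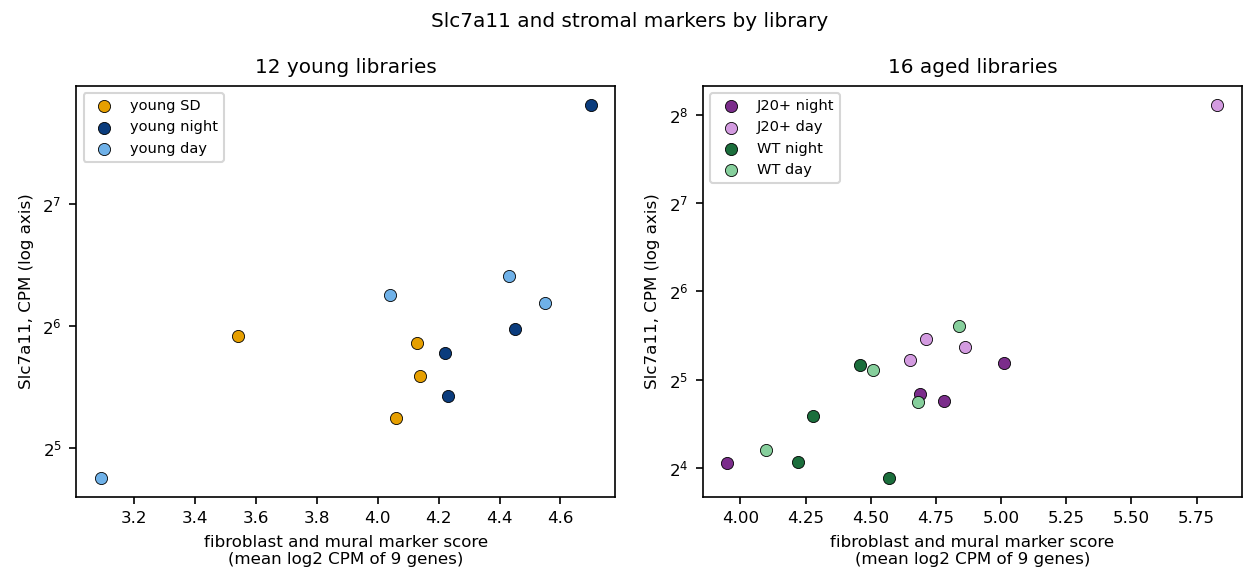
Slc7a11 (CPM, log axis) against the fibroblast and mural marker score (mean log2 CPM of 9 genes), 1 point per library, young on the left and aged on the right. Young night library 4 (226 CPM, score 4.70) and J20+ day library 1 (278 CPM, score 5.83) lie at the upper right of their panels.

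Sleep disruption was set against the undisturbed day to separate time of day from waking. No member was called in young SD over day libraries, where 0% of 14983 genes were called, 0 members had an unadjusted p under 0.05, and DESeq2 and limma-voom also called 0. Nqo1 had 173, 181, 169 and 168 CPM in SD libraries, against 175, 189, 192 and 168 CPM in day libraries, a log2 fold change of -0.06 ± 0.08 with a 95% confidence interval from -0.23 to 0.11. Osgin1 had 8, 12, 18 and 29 counts in SD libraries, against 11, 12, 6 and 4 counts in day libraries, a value of 0.93 ± 0.48 (edgeR adjusted p = 0.861). No member had SD libraries that all lay on 1 side of the day libraries, as 1.97% of genes had.

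Night and sleep disruption share the same day libraries, so their values against day are given side by side. For Nqo1 they were -0.38 ± 0.08 at night and -0.06 ± 0.08 after sleep disruption, and for Osgin1 1.53 ± 0.46 at night and 0.93 ± 0.48 after sleep disruption. Set against each other directly, 0 of 10 members were called in night over SD, against 0.38% of all genes, with 1 member at an unadjusted p under 0.05, against 9.7% of genes. That member was Nqo1, at -0.32 ± 0.08 (edgeR adjusted p = 0.139). It passed with DESeq2 (adjusted p = 0.00259), where 2.1% of genes with an adjusted p were called, and with limma-voom (adjusted p = 0.0120), where 7.38% were. The edgeR alternatives did not call it (adjusted p up to 0.253). Neither did any of the 8 edgeR fits leaving out 1 library (adjusted p from 0.128 to 0.431). Both Nqo1 and Gclm had every night library below every SD library, as had 4.18% of genes.

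The J20 genotype was compared with WT littermates at each time. At night, Nfe2l2 and Txnrd1 had the largest J20+ over WT log2 fold changes, 0.76 ± 0.28 and 0.82 ± 0.30 (edgeR adjusted p = 0.100 each), and Nqo1 had 0.43 ± 0.26 (adjusted p = 0.256). None of the 10 members was called, against 0.00622% of 16065 genes, with 2 at an unadjusted p under 0.05, against 31.9% of all genes. DESeq2 called 2 members, against 19.2% of genes with an adjusted p, and limma-voom called 4, against 72.1% of genes. No member had groups apart, as 7.13% of genes did. For Nfe2l2, Txnrd1 and Nqo1, J20+ night library 2 (50.6, 42.0 and 51.6 CPM) lay below every WT night library, and the other J20+ night libraries lay above every WT night library. Without that library the values were 1.02 for Nfe2l2 (adjusted p = 0.00166), 1.10 for Txnrd1 (adjusted p = 0.00166) and 0.66 for Nqo1 (adjusted p = 0.0148), 3 of 10 members called where 57.7% of all genes were called.

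By day none of the 10 members was called in J20+ over WT mice, where 0% of genes were called, and none had groups apart, as 1.36% of genes did; 1 member had an unadjusted p under 0.05 (1.87% of genes), DESeq2 called 0 (0% of genes) and limma-voom called 2 (14.7% of genes). Nfe2l2 stood at 0.02 ± 0.27 and Osgin1 at -0.18 ± 0.16. Slc7a11 stood at 1.64 ± 0.60 (edgeR adjusted p = 0.989), and at 0.35 ± 0.34 without J20+ day library 1. In the difference between genotypes of the night over day change, 0% of genes and 0 members were called, 0 members had an unadjusted p under 0.05 (12.4% of genes), DESeq2 called 0 members (0.0565% of genes) and limma-voom called 3 (33.5% of genes). Without J20+ night library 2, that difference was 1.00 for Nfe2l2 and 0.87 for Txnrd1 (adjusted p = 0.0422 each), 2 of 10 members called where 20.9% of all genes were called.

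**Figure D4:**
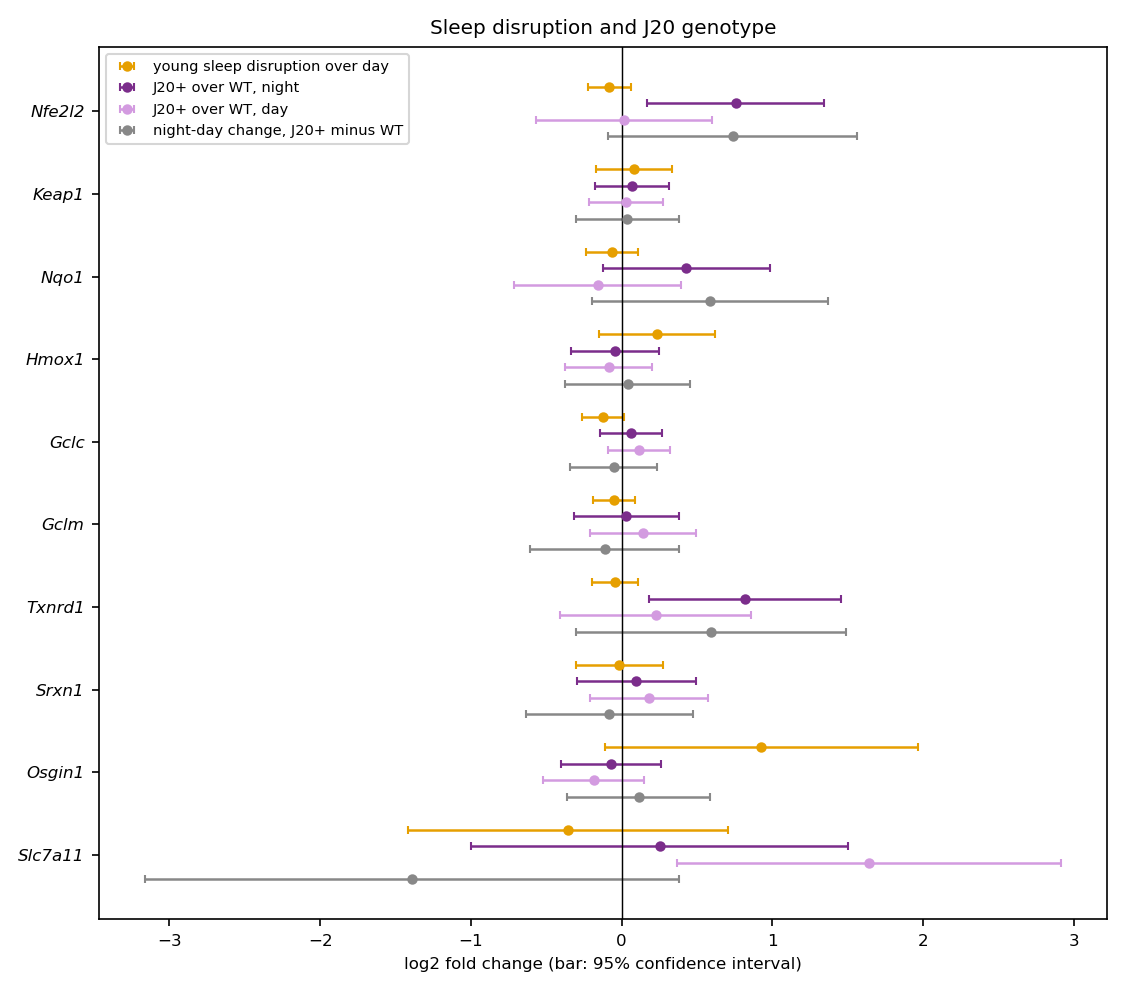
Log2 fold changes (horizontal axis, 95% confidence intervals) of young sleep disruption over day, J20+ over WT at night and by day, and the J20+ minus WT difference of the night over day change. Nfe2l2 (0.76) and Txnrd1 (0.82) stand to the right at night, and no value in this plot has an adjusted p under 0.05.

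Markers of tissue composition differed between the same aged groups. In WT night over day libraries, 19 of 20 neural markers had a positive log2 fold change, with a median of 2.28, and 0 of 10 choroid epithelium markers did, with a median of -0.73. None of these markers was called. The epithelium score ran from 9.53 to 10.1 in WT night and from 10.4 to 10.8 in WT day libraries, as mean log2 CPM. In J20+ over WT at night the signs were the other way, with 1 of 20 neural markers (median -2.86) and 9 of 10 epithelium markers (median 0.75) positive. Both comparisons use the same WT night libraries, on opposite sides, so opposite signs are partly built in. With the neural score as a covariate, the aged WT night over day values were -0.28 ± 0.25 for Nfe2l2, -0.08 ± 0.26 for Txnrd1, -0.39 ± 0.18 for Nqo1 and 0.87 ± 0.18 for Osgin1. Under the same covariate J20+ over WT at night was 0.15 ± 0.26 for Nfe2l2, 0.12 ± 0.28 for Txnrd1 and -0.23 ± 0.20 for Nqo1, the last with its sign turned. The J20+ minus WT difference of the night over day change was then 0.09 ± 0.34 for Nfe2l2, -0.16 ± 0.36 for Txnrd1 and -0.11 ± 0.25 for Nqo1. No member was called in these 3 comparisons under the covariate.

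Over the 16 aged libraries the epithelium score had an r of 0.967 with log2 CPM of Nfe2l2 (Spearman rho 0.932; r 0.942 without the 2 libraries of most extreme score). It had an r of 0.976 within the 8 night libraries and 0.909 within the 8 day libraries. For Nqo1 r was 0.925, with 0.948 within night and 0.874 within day. For Txnrd1 it was 0.917, with 0.969 within night and 0.631 within day. Osgin1 differed, with an r of -0.442 over all 16, -0.245 within night and 0.269 within day. These libraries share genotype, time and dissection, so the values are descriptions.

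**Figure D5:**
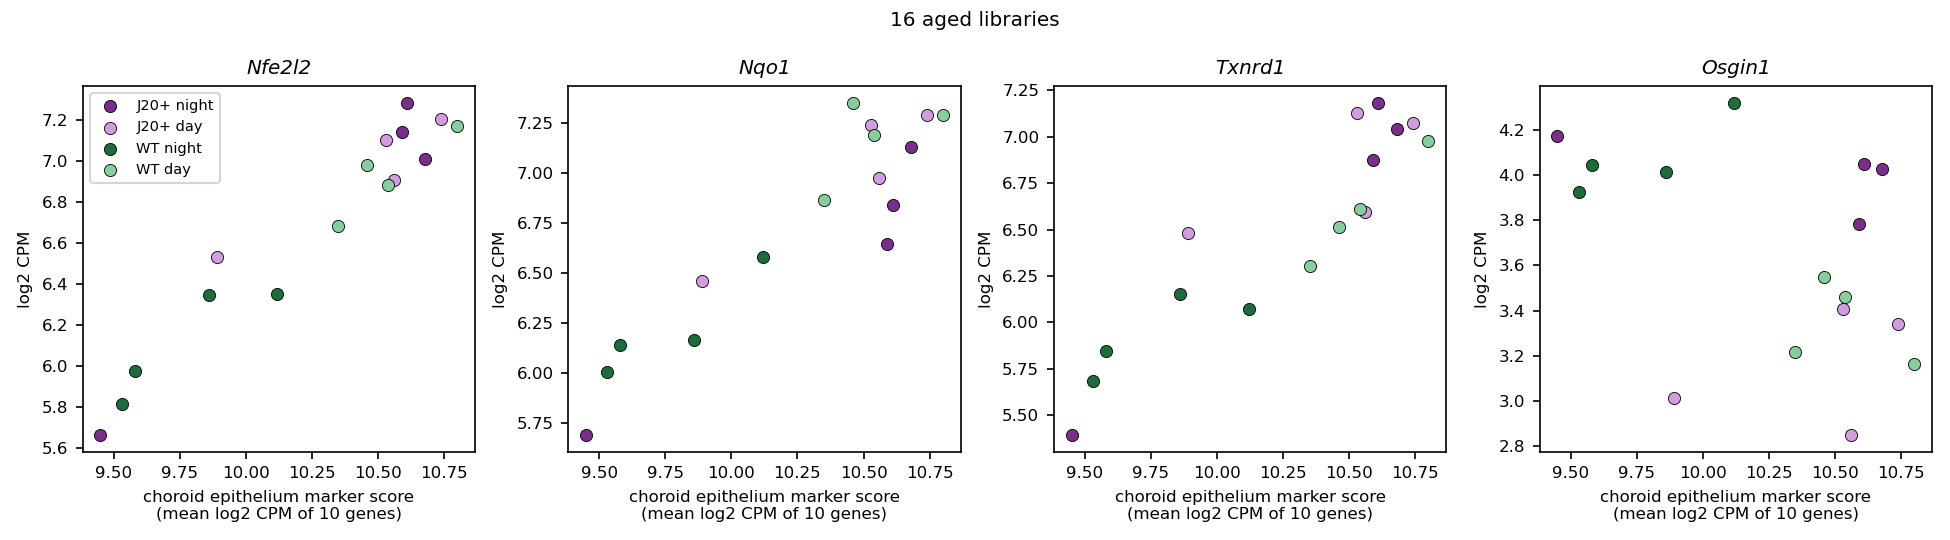
Log2 CPM of Nfe2l2, Nqo1, Txnrd1 and Osgin1 against the choroid epithelium marker score (mean log2 CPM of 10 genes) in 16 aged libraries. The first 3 genes are higher in libraries of higher score, which runs from 9.45 to 10.8. Within each genotype Osgin1 lies higher in night than in day libraries, as for 2.42% (J20+) and 10.8% (WT) of genes tested.

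For each member the most similar gene in both tables was taken from 11544 named genes averaging 1 or more on the log2 CPM scale in both tables, by the smaller of its Pearson r over 12 young and over 16 aged libraries. Nfe2l2 paired with Mospd1 (r 0.984 aged, 0.965 young) and Nqo1 with Hadhb, a subunit of the mitochondrial trifunctional protein (r 0.937 aged, 0.935 young). Slc7a11 paired with Wnt5a, a secreted WNT ligand (r 0.890 aged, 0.945 young), and Osgin1 with Tada3 (r 0.873 aged, 0.903 young). For the remaining members these were Slc25a11 for Keap1, Coasy for Hmox1, Map1b for Gclc, Pir for Gclm, Bysl for Txnrd1 and Rtf2 for Srxn1, with r between 0.785 and 0.937. No member was the best match of another member. Each r is the best of the whole search and so is high by selection. Slc7a11 had 1 far higher library in each table, and its r with Wnt5a was not recomputed without these libraries.

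Outside the 10 members, 97 further genes of regulators, glutathione use, glutathione transferases, thioredoxin and peroxiredoxin, detoxification, haem and iron, NADPH supply, and superoxide and peroxide removal were examined, of which 89 were tested in the pooled night over day fit. Of these, 2 were called higher and 1 lower, against 0.757% and 0.709% of all genes, and their median log2 fold change was 0.03, beside 0.01 over all genes. None of them was called within a single cohort, after sleep disruption or between genotypes.

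The called genes came from the lists of glutathione use, glutathione transferases, and thioredoxin and peroxiredoxin. Ggt7, a member of the gamma-glutamyltransferase family, had 49.1 ± 20.04 CPM in J20+ night and 30.3 ± 2.3 CPM in J20+ day libraries, 62.8 ± 8.1 CPM in WT night and 33.1 ± 3.9 CPM in WT day libraries, and 5.01 ± 1.31 CPM in young night and 4.11 ± 0.49 CPM in young day libraries (SD, n = 4 each). It rose by 0.63 ± 0.13 on the log2 scale (adjusted p = 0.0201). Gstt1, a theta-class glutathione transferase, had 67.2 ± 5.6 CPM in J20+ night and 51.9 ± 5.6 CPM in J20+ day libraries, 78.2 ± 23.5 CPM in WT night and 53.5 ± 4.0 CPM in WT day libraries, and 11.1 ± 3.2 CPM in young night and 7.74 ± 1.40 CPM in young day libraries. It rose by 0.46 ± 0.11 (adjusted p = 0.0401), and leaving out 1 library ended that call in 16 of 24 cases, with adjusted p up to 0.0786. Txnrd3, the thioredoxin-glutathione reductase, had 12.3 ± 4.0 CPM in J20+ night and 19.4 ± 3.7 CPM in J20+ day libraries, 10.1 ± 2.1 CPM in WT night and 17.5 ± 3.3 CPM in WT day libraries, and 12.0 ± 2.5 CPM in young night and 16.4 ± 1.3 CPM in young day libraries. It fell by 0.65 on the log2 scale (SE 0.12, adjusted p = 0.00798). Leaving out any 1 library ended the call of neither Ggt7 (adjusted p up to 0.0451) nor Txnrd3 (up to 0.0210).

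Glutathione transferases had mostly 1 sign in the aged comparisons at night, with no call in either. In WT night over day libraries 15 of 16 tested had a positive log2 fold change (median 0.25, beside 0.03 over all genes), with Gstm1 at 0.96 ± 0.24 (edgeR adjusted p = 0.144), and in J20+ over WT at night 1 of 16 was positive (median -0.22, beside -0.01 over all genes), with Gsto1 at -0.50 ± 0.17 (adjusted p = 0.0957). These are the comparisons in which the neural markers stood at 19 of 20 and 1 of 20 positive. They share the WT night libraries on opposite sides, so opposite signs are partly built in. The signs did not go together in every aged comparison. In J20+ night over day, 13 of 16 transferases and 4 of 20 neural markers were positive. In J20+ over WT by day these were 4 of 16 and 13 of 20. For the genotype difference of the night over day change they were 5 of 16 and 1 of 20. The part of other cells in the transferase values was not tested. In young mice Idh1, a cytosolic source of NADPH, had -0.38 ± 0.09 at night over day (adjusted p = 0.120) and Cat, which encodes catalase, had -0.22 ± 0.06 (adjusted p = 0.205). Among regulators, Nfe2l1, a relative of NRF2, had -0.93 ± 0.34 in aged WT night over day (adjusted p = 0.144). The pooled values were 0.18 ± 0.07 for Rbx1 of the CUL3 ligase (adjusted p = 0.151) and 0.44 ± 0.13 for the biliverdin reductase gene Blvrb (adjusted p = 0.0730).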

How the data were processed

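The values are raw, unnormalized counts for each Entrez gene, which the authors deposited as a young table (12 libraries, batch 1) and an aged table (16 libraries, batch 2). The submitters' processing notes name mouse build mm10 and the tools HISAT2 2.2.1, Picard 2.18.2, featureCounts 2.0.1, cutadapt, FastQC 0.11.8 and DESeq2, with no role for each; per the labels, libraries were TruSeq Stranded mRNA on a NovaSeq. Neither strand setting nor annotation is given in the sources used here. Entrez IDs were matched to the RefSeq table of GRCm38.p6 (25275 of 27179, 93.0%), and exon lengths came from GENCODE.

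Counts were filtered by group (filterByExpr), scaled by TMM and fitted over all genes in edgeR 4.0.16 (robust quasi-likelihood, R 4.3.3), young and aged tables apart, with a pooled fit of 24 libraries and cohort as a term. P-values were 2-sided and adjusted by Benjamini-Hochberg over all genes tested, with a threshold of 0.05. SE is the log2 fold change over the square root of F. Scores use log2 CPM with a prior count of 2. The fitting steps were also run on simulated counts with known changes, in which libraries did not differ in tissue composition. The outcome is not given here. Alternatives were RLE (relative log expression) scaling, limma-voom with quality weights (limma 3.58.1), DESeq2 1.42.0, no count filter, a neural marker score as covariate, the compared groups alone, a fit without both J20+ night library 2 and J20+ day library 1, and leaving out each library.

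The members, the other gene lists and the tests were chosen with earlier results of these data known. Named genes were all members, called genes of the other lists (at most 5 by smallest p) or the 1 with the smallest p, and the most similar gene of each member. The text gives a selection of those smallest-p genes. No 2 libraries held identical counts.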

Additional observations from a re-analysis of the deposited data

Results flagged for a closer look

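In 4 of 70 groups of 4 libraries a member's highest or lowest library lay far from the others (the gap to the next library, over the group's range, passed Dixon's 95% critical value); chance gives about 1 such group in 20. Slc7a11 had 278.1 CPM in J20+ day library 1, against 37.4 to 43.9 CPM in the other libraries of that group. It had 225.5 CPM in young night library 4, against 43.0 to 62.8 CPM in the rest. Keap1 had 15.09 CPM in young night library 4, against a group median of 19.02 CPM. Gclm had 23.56 CPM in J20+ night library 2, against 35.1 to 36.6 CPM in the others.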

How the results depend on the processing

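Counts of calls moved widely, and fold changes of members mostly kept their sign but not always their size. Of 1540 recomputed fold changes of members 1420 had the same sign, and the 120 that turned were called in neither setting. Over alternatives beside leaving out libraries, J20+ over WT at night ran from 0.15 to 1.08 for Nfe2l2 and from -0.23 to 0.79 for Nqo1. Aged WT night over day ran from -0.75 to -0.08 for Txnrd1, and pooled night over day from 0.72 to 0.97 for Osgin1. Genes called in young night over day numbered 40, and 257 with DESeq2, 2797 with limma-voom, 63 with the neural covariate and 13 on the compared groups alone. For young night over SD the 57 became 312, 1105, 90 and 16. For aged WT night over day the 2 became 1390, 8312, 5 and 4033, and 7155 without both J20+ night library 2 and J20+ day library 1. For J20+ night over day the 7 became 79 with DESeq2, 274 with limma-voom, 2 with RLE, 4 unfiltered and 1 on the compared groups. For J20+ over WT at night the 1 became 3001, 11588, 0 with RLE, 0 unfiltered, 0 with the neural covariate, 0 on the compared groups and 10135 without the 2 libraries. By day limma-voom gave 2369 against 0. The genotype difference in night over day change gave 9 with DESeq2 and 5382 with limma-voom, against 0. The pooled 242 became 883, 1427, 152 unfiltered and 503 without the 2 libraries. Members called are given with the share of all genes with an adjusted p that were called. In young night over day they went from 0 to 2 with DESeq2 (1.87%), 3 with limma-voom (18.7%) and 1 with the neural covariate (0.42%). In young night over SD both tools gave 1 (2.1% and 7.38%). In J20+ night over day both gave 1 (0.496% and 1.71%). In aged WT night over day DESeq2 gave 3 (9.08%) and limma-voom 5 (51.7%). There the compared groups gave 4 (26.2%) and the fit without the 2 libraries 5 (44.4%). In J20+ over WT at night DESeq2 gave 2 (19.2%), limma-voom 4 (72.1%) and the fit without the 2 libraries 3 (62.9%). By day limma-voom gave 2 (14.7%), and for the genotype difference 3 (33.5%). The causes were not tested.

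Leaving out 1 library gave 15 to 109 genes in young night over day, 22 to 86 in young night over SD, 0 to 0 in SD over day, 2 to 5 in J20+ night over day, 2 to 100 in aged WT night over day, 0 to 9414 in J20+ over WT at night, 0 to 0 by day, 0 to 3409 for the genotype difference and 106 to 909 pooled. The upper ends came without young night library 4 (109, 86 and 909), WT night library 3 (100) and J20+ night library 2 (9414 and 3409), and J20+ over WT at night gave 107 without WT night library 3. Members called ran from 0 to 3 in J20+ over WT at night, 0 to 2 for the genotype difference and 1 to 2 pooled, and stayed at 0 in the others. The 3 and the 2 unpooled calls came without J20+ night library 2, where 57.7% and 20.9% of all genes were called. The pooled call of Gstt1 was lost unfiltered (adjusted p = 0.0621), while Ggt7 and Txnrd3 were called under all 6 alternatives beside leaving out libraries. On unscaled library totals 67 of 70 group means moved by less than 1 SD. No paired analysis was possible because the labels carry no replicate numbers. With 4 libraries per group, the young Osgin1 values rest on 4 to 35 counts per library.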
